A study of Rattus norvegicus with 2 samples.

Results

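The angiotensin and vasopressin genes described here are Ace, Agt, Agtr1a, Agtr1b, Agtr2 and Avpr1a, 6 of the 4736 genes with a probe set of their own on the Affymetrix rat genome U34A array. All probe sets annotated with exactly 1 of these symbols and no other were taken, which gave 13 of the 8740 probe sets that are not array controls. The genes were selected on their intensities on these same 2 arrays, with earlier results known, so their differences are described and not tested. The arrays compared cultured endothelial cells of the endocardium, the lining of the heart chambers, with cultured endothelial cells of the aorta. Per the labels, both kinds of cells came from the same 2 rats (strain, age and sex not given), were pooled by origin, and were grown for 2 passages in closely matched cultures with no treatment named, before total RNA was isolated. Each group was 1 pooled culture on 1 array, so the spread between cultures is unknown, no p-value can be given, and differences between the 2 origins, the 2 cultures and the 2 arrays cannot be told apart. More RNA per cell and more cells of a type that makes it cannot be told apart either.

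Angiotensinogen, the product of Agt, is cleaved by renin to angiotensin I, which angiotensin-converting enzyme (Ace), a peptidase on the surface of endothelial cells, turns into angiotensin II. Rats carry a pair of genes for the type 1 angiotensin receptor, Agtr1a and Agtr1b, whose products couple to Gq proteins and drive vasoconstriction and growth. The type 2 receptor, Agtr2, is best known from fetal tissue and often opposes the type 1 receptor, and the vasopressin receptor V1a, encoded by Avpr1a, also couples to Gq and mediates vasoconstriction by vasopressin.

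Each array gave 1 intensity per probe set, on a linear scale that runs below 0 for dim probe sets. Intensities are printed after scaling both arrays to the same 2% trimmed mean. The median of all scaled values, 635.4, served as a floor: a probe set was called measured when it exceeded the floor on at least 1 array, and values below the floor were set to it before a ratio was taken. Of 38 control probe sets that no rat transcript should bind, 6 on the endocardial and 7 on the aortic array exceeded that floor, and the highest of them, 1742, gives a stricter line. Of the 13 member probe sets, 9 were measured, 8 of them on both arrays. A difference of 2-fold or more toward the endocardial array was seen for 5 of the 9, against 6.61% of all 4808 measured probe sets, and 2 were at least 2-fold lower, against 4.83% of all. With the highest control as the floor, 4 of 8 measured member probe sets were higher (4.53% of all) and 1 was lower (3.26% of all). The 5 were all 4 probe sets of Agtr1a and 1 of Agtr1b, and the 2 were the single probe sets of Ace and Avpr1a.

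**Figure D1:**
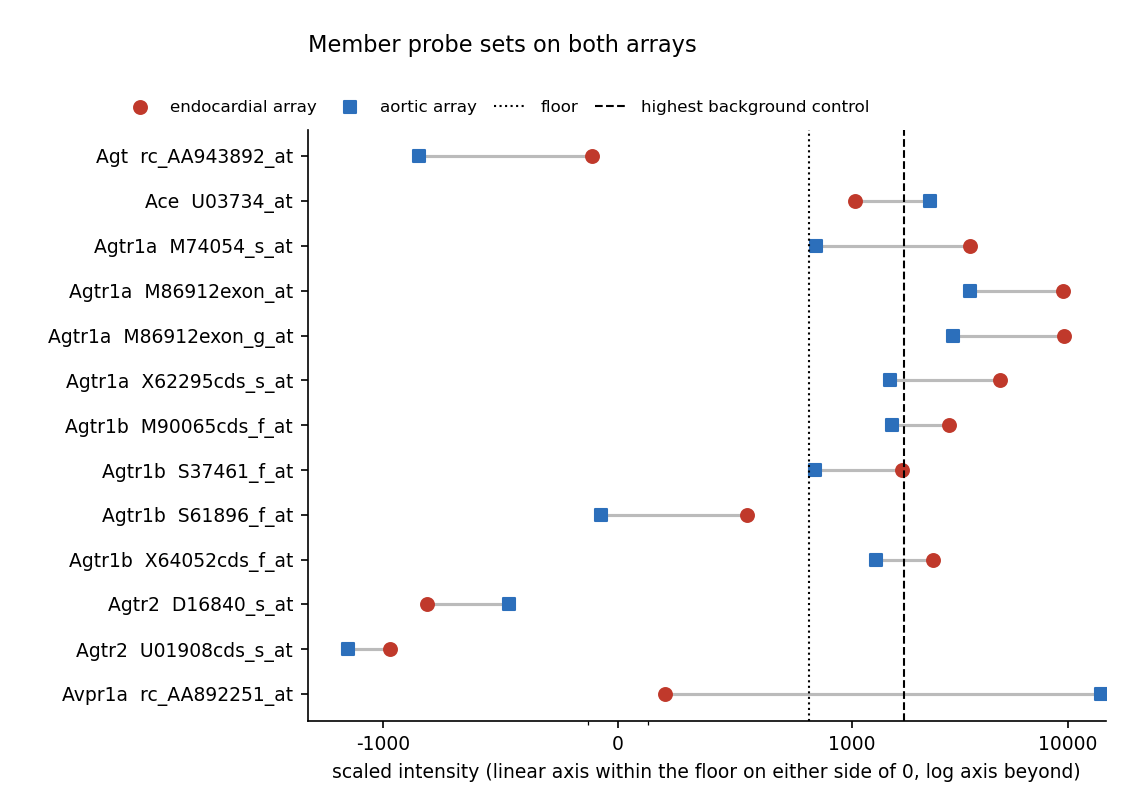
Scaled intensity (x axis, linear between the floor and its negative and logarithmic beyond) of each of the 13 member probe sets on the endocardial (circles) and the aortic array (squares), with the floor (dotted, 635.4) and the highest background control (dashed, 1742). All 4 Agtr1a probe sets lie further right on the endocardial array, and Avpr1a lies at 157.2 on the endocardial and at 14238 on the aortic array.

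The type 1 receptor gene Agtr1a was brighter on the endocardial array with every probe set. Probe set M86912exon_at gave 9503 on the endocardial and 3522 on the aortic array, and its partner M86912exon_g_at gave 9582 on the endocardial and 2936 on the aortic array. Both were above the highest background control on both arrays, and were 2.70-fold and 3.26-fold higher on the endocardial array. Probe set X62295cds_s_at gave 4837 on the endocardial and 1497 on the aortic array, a 3.23-fold difference. Probe set M74054_s_at gave 3516 on the endocardial and 684.4 on the aortic array, a 5.14-fold difference whose aortic value lay close to the floor. For these last probe sets the aortic value was under the highest background control, and against that control they were at least 2.78-fold and at least 2.02-fold higher. The median log2 ratio of Agtr1a, endocardial over aortic, was 1.70, a 3.25-fold difference, with an SD of 0.40 among its 4 probe sets. Where 625 genes had several probe sets exceeding the floor on both arrays, the log2 ratios within a gene had a pooled SD of 0.39. These SDs describe agreement between probe sets on the same RNA and not between cultures.

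As a description only, since Agtr1a was selected on these values, 3 of 191 genes with 3 or more measured probe sets had all of them 2-fold or more brighter on the endocardial array: Agtr1a, the cytochrome P450 gene Cyp1b1 and the transcription factor gene Nfia. This count follows the size of the differences as well as their agreement. Over all measured probe sets, M74054_s_at had the 40th highest log2 ratio of 4808 and M86912exon_at, the lowest of the Agtr1a set, the 156th.

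The second type 1 receptor gene, Agtr1b, was also brighter on the endocardial array, by less. Probe set M90065cds_f_at gave 2825 on the endocardial and 1536 on the aortic array, a 1.84-fold difference. Probe set X64052cds_f_at gave 2370 on the endocardial and 1291 on the aortic array, likewise a 1.84-fold difference. Probe set S37461_f_at gave 1714 on the endocardial and 673.4 on the aortic array, a 2.55-fold difference between a value just under the highest background control and a value just over the floor. The last, S61896_f_at, stayed under the floor on both arrays, at 427 on the endocardial and at -55.5 on the aortic array. All 4 values were thus higher on the endocardial array, but none of the aortic values and 2 of the endocardial ones exceeded the highest background control. The median log2 ratio over the 3 measured probe sets was 0.88, with an SD of 0.27. The ending f_at marks probe sets for which Affymetrix could not pick probes unique to 1 member of a gene family. Across all 109 measured probe sets with that ending, 5.5% were at least 2-fold higher, 7.34% were at least 2-fold lower, and the median log2 ratio was -0.01. Agtr1a and Agtr1b are closely similar in coding sequence, and whether the Agtr1b probe sets also bound Agtr1a transcript was not tested, so the Agtr1b values are uncertain. The endings s_at and g_at, which 3 of the 4 Agtr1a probe sets carry, also mark probes that can be shared between sequences, and M86912exon_at is the Agtr1a probe set without such an ending.

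**Figure D2:**
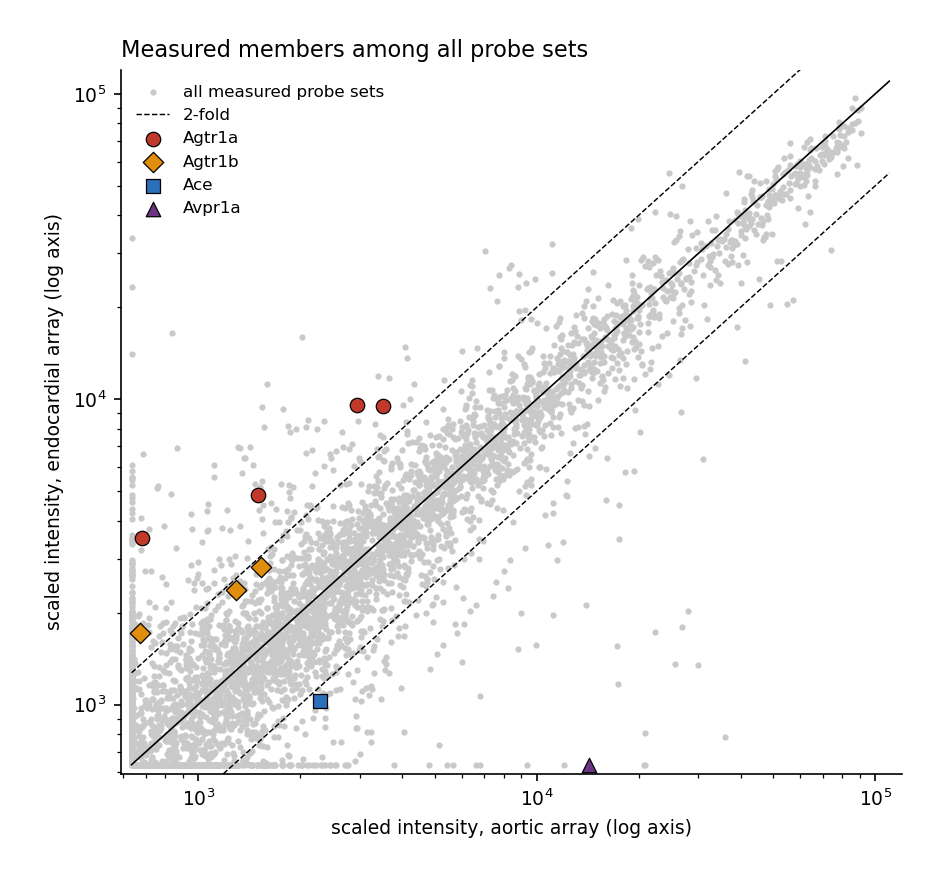
Scaled intensity of the 4808 measured probe sets on the endocardial (y axis) and the aortic array (x axis), both on log axes, with values under the floor set to it. The solid line marks equal values and the dashed lines a 2-fold difference; the 4 Agtr1a probe sets lie above the upper dashed line, Ace lies just beyond the lower one, and Avpr1a lies at the floor on the endocardial array.

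The promoters of both type 1 receptor genes are shown because their probe sets were brighter on the same array, and that of Avpr1a as the member with the largest difference in the opposite direction. RefSeq promoter sequences of build GRCr8 were matched for 5 of the 6 genes. The 250 bases before the annotated start are on the minus strand for Agtr1a (chr17:34435433-34435682) and for Agtr1b (chr2:104849263-104849512), and on the plus strand for Avpr1a (chr7:59999493-59999742). They are printed 5′ to 3′ along the gene, with capitals marking every match, on either strand, to the TATA motif TATAAA, the GC box GGGCGG or the CCAAT box.
Agtr1a: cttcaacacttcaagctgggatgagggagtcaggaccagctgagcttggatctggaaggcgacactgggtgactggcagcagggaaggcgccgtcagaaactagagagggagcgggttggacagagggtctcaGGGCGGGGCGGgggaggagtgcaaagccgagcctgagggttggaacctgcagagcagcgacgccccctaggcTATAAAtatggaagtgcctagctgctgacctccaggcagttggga
Agtr1b: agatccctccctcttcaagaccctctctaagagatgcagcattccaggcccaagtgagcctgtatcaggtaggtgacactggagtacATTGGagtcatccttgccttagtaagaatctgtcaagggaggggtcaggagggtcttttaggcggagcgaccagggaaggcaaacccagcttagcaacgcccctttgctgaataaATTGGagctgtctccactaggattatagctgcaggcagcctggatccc
Avpr1a: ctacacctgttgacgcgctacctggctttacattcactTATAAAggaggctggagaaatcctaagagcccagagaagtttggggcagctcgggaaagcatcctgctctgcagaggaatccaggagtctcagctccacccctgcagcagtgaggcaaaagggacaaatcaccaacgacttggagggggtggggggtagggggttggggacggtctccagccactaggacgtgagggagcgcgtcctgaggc
The Agtr1a window held TATAAA, starting 45 bases before the annotated start, and 2 copies of GGGCGG that share a base. The Agtr1b window held neither of these and had 2 copies of CCAAT, both on the opposite strand, the nearer one starting 48 bases before the start. The Avpr1a window held 1 TATAAA, 212 bases before the start. The Ace window, not printed, held 1 TATAAA match, 42 bases before the start and on the opposite strand, and 4 copies of GGGCGG. Whether any of these motifs bears on the intensities was not tested. Across 27457 RefSeq promoters, windows of the same length held TATAAA in 13.1%, GGGCGG in 32.4% and CCAAT in 34.3%. The E-box CANNTG, present in 65.2% of promoters, occurred 2 times for Agtr1a, 1 time for Agtr1b, 1 time for Avpr1a and 0 times for Ace, and the AP-1 motif TGANTCA, present in 6.36%, occurred in none of these windows. These are matches of letters and not measured binding sites. In a global alignment the Agtr1a and Agtr1b windows were identical at 152 of 279 columns (54.5%), and the other 9 pairs among the 5 matched genes ranged from 39.6% to 49.1%.

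No probe set of the type 2 receptor gene Agtr2 was measured. Probe set D16840_s_at gave -631.5 on the endocardial and -360.2 on the aortic array, and U01908cds_s_at gave -935.2 on the endocardial and -1459 on the aortic array. Both were below 0 on both arrays, so that no ratio can be formed, and a level below the floor cannot be told from absence.

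The vasopressin V1a receptor gene Avpr1a had the largest difference among the members. Its single probe set, rc_AA892251_at, gave 157.2 on the endocardial and 14238 on the aortic array. The aortic value was far above the highest background control and the endocardial value was under the floor. The difference was therefore at least 22.4-fold lower on the endocardial array against the floor, and at least 8.17-fold lower against the highest background control. It was the fifth lowest log2 ratio of the 4808 measured probe sets. The probe set derives from an expressed sequence tag, its pairing with Avpr1a came from the platform annotation and was not checked by sequence, and no second probe set of the gene was given.

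Of the precursor and the converting enzyme, only the enzyme was measured. The Agt probe set, rc_AA943892_at, gave -85.3 on the endocardial and -684.9 on the aortic array, both below 0. The Ace probe set, U03734_at, gave 1028 on the endocardial and 2297 on the aortic array. It was 2.23-fold lower on the endocardial array, with the aortic value above and the endocardial value below the highest background control. Against that control the difference was at least 1.32-fold, and Ace no longer passed 2-fold. A further probe set, L36664_s_at, is annotated with both Ace3 and Ace and was left out by the selection rule. It gave 628 on the endocardial and 788.7 on the aortic array, at least 1.24-fold lower in the same direction and with both values under the highest background control.

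The surrounding pathway was described with lists of genes, chosen with earlier results known, in which a gene takes the median over its measured probe sets. Of all 2935 genes measured, 5.93% were at least 2-fold higher and 4.16% at least 2-fold lower, and the median log2 ratio was -0.02. Of 16 peptidases that form or degrade angiotensins and kinins, 12 were on the array and 8 were measured. None was at least 2-fold higher and 1 was lower, thimet oligopeptidase (Thop1), which cleaves angiotensin I and bradykinin, at 797.8 on the endocardial and 2071 on the aortic array, 2.60-fold. The median log2 ratio of the 8 was -0.21, and the highest was that of cathepsin D (Ctsd), 0.89. Its 2 probe sets gave 0.66 and 1.13, so 1 of them passed 2-fold. The 3 probe sets of Anpep gave -1.20, -0.31 and 0.25, so 1 of them passed 2-fold in the lower direction. Neprilysin (Mme), which also degrades angiotensins and kinins, did not reach 2-fold. It was at least 1.70-fold lower, with an endocardial value of 372.7 under the floor and an aortic value of 1083 under the highest background control. Its other probe set was below 0 on both arrays.

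Of 12 other peptides and receptors of the angiotensin, vasopressin, oxytocin and kinin systems, 9 were on the array and 4 were measured. The vasopressin precursor gene Avp was at least 2-fold higher, with 3697 on the endocardial and 1063 on the aortic array for M25646_at, a 3.48-fold difference, while its other 2 probe sets were under the floor on both arrays. The lowest log2 ratio was that of the kinin B1 receptor Bdkrb1, -0.67, and the median of the 4 was -0.10. On probe sets annotated with exactly 1 symbol, the angiotensin-(1-7) receptor Mas1, the vasopressin receptors Avpr1b and Avpr2, the oxytocin receptor Oxtr and the kinin B2 receptor Bdkrb2 were under the floor on both arrays. A further probe set, AF064541_s_at, whose annotation lists the symbol Avpr1b more than once and which was therefore not counted, gave 2067 on the endocardial and 2260 on the aortic array, both above the highest background control.

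Of 7 genes of the mineralocorticoid arm, which make aldosterone, metabolise glucocorticoids or respond to either, 6 were on the array and 2 were measured. The steroidogenic gene Star, whose product brings cholesterol into mitochondria, was at least 3.30-fold lower, at -103.9 on the endocardial and 2099 on the aortic array for 1 probe set, with the other under the floor on both. The 11-beta-hydroxysteroid dehydrogenase gene Hsd11b1 had 13487 on the endocardial and 9011 on the aortic array, a log2 ratio of 0.58.

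Of 24 genes of Gq signalling and receptor desensitisation, downstream of the type 1 and V1a receptors, 19 were on the array and 13 were measured. Gnaq and Gna11, which encode the alpha subunits of Gq proteins, were not among the 19. The list also took in Gna12, which is not a Gq gene. The protein kinase C gene Prkcd was at least 2-fold higher, with a median log2 ratio of 1.08 over 2 probe sets (0.64 and 1.52), and none was at least 2-fold lower. The lowest was the inositol trisphosphate receptor gene Itpr3 (log2 ratio -0.68), and the median of the 13 was 0.14. The share of the 13 that passed 2-fold was close to that of all genes in the higher direction.

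Of 16 genes known to be induced by angiotensin II in vascular cells, 11 were on the array and 10 were measured. At least 2-fold higher were 3, osteopontin (Spp1), with 6992 on the endocardial and 1313 on the aortic array (5.33-fold), endothelin (Edn1), with 4095 on the endocardial and 1874 on the aortic array (2.19-fold), and the transcription factor gene Jun, at least 2.19-fold for 1 of its 4 probe sets, the others being under the floor. At least 2-fold lower were 2, the cyclooxygenase gene Ptgs2 (at least 2.38-fold) and the transcription factor gene Myc (2.12-fold). Each had 2 probe sets of which 1 passed 2-fold, with log2 ratios of -0.77 and -1.74 for Ptgs2 and of -0.71 and -1.46 for Myc. The median log2 ratio of the 10 was 0.19, so members of this list lay on both sides. With the highest background control as the floor, Avp, Spp1 and Edn1 stayed at least 2-fold higher, and no other gene of the 5 lists passed 2-fold in either direction, where 3.99% of all 1904 genes then measured were higher and 2.36% lower.

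**Figure D3:**
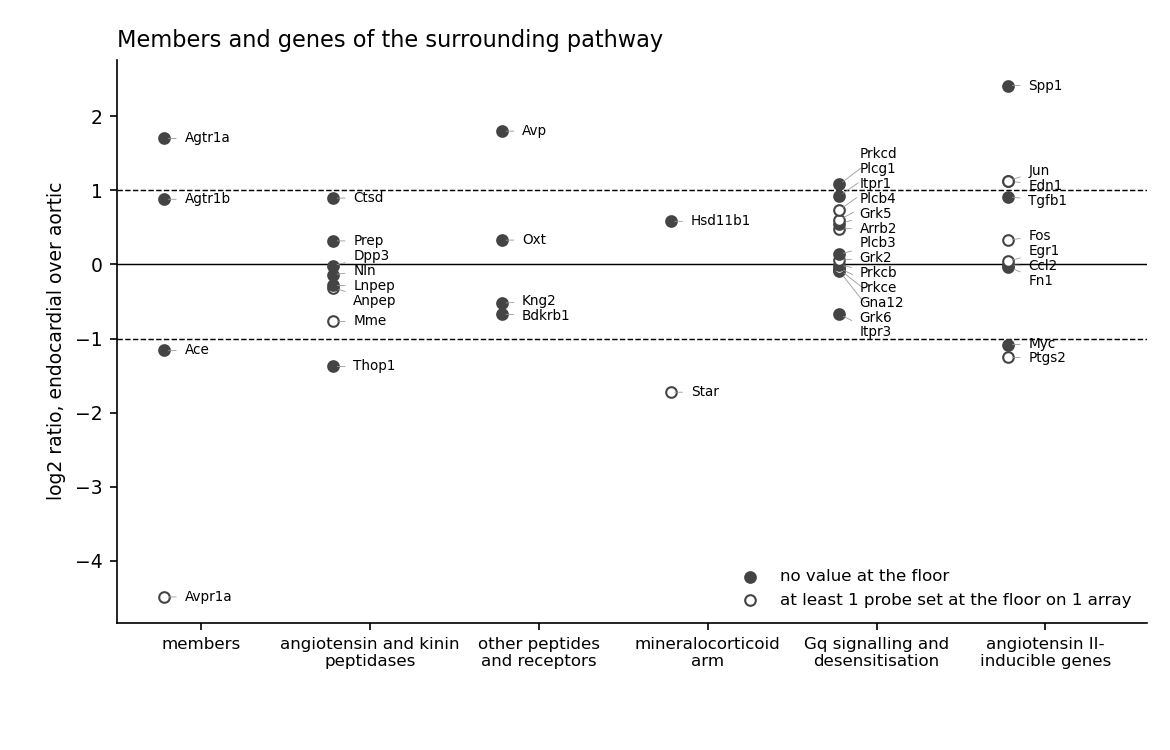
Log2 ratio, endocardial over aortic (y axis), of the 4 measured member genes and of every measured gene of the 5 pathway lists. Each point is a gene (median over its measured probe sets), open points have at least 1 measured probe set at the floor on 1 array, and the dashed lines mark 2-fold; Agtr1a at 1.70 and Avp at 1.80 lie above the upper line and Avpr1a, at -4.49 or lower, far below the lower one.

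Type 1 and V1a receptors are well known from vascular smooth muscle, and the type 1 receptor also from fibroblasts, so the labelled cell type was set beside marker lists. Of 11 endothelial markers, 8 were on the array, and Vwf, Pecam1, Kdr and Icam2 were under the floor on both arrays; Kdr and Icam2 were at or below 0 on both, and Vwf on the aortic array. The other 4 were measured: Nos3 with 4 of 6 probe sets (median 1382 on the endocardial and 1396 on the aortic array), thrombomodulin, Thbd (2848 on the endocardial and 3921 on the aortic array), Flt1 (1054 on the endocardial and 827.4 on the aortic array), and Ets1, at least 2.22-fold higher. The Thbd values came from 1 of its 2 probe sets, and the other was under the floor on both arrays. The 2 Ets1 probe sets were 1.34-fold and at least 3.66-fold higher. Endothelial markers exceeded the floor with 8 of 16 probe sets on the endocardial and 7 on the aortic array. Only 2 on the endocardial and 2 on the aortic array exceeded the highest background control. Their summed intensity, with values below 0 taken as 0, was 14042 on the endocardial and 12219 on the aortic array. Smooth muscle markers exceeded the floor with 10 of 14 probe sets on the endocardial and 11 on the aortic array. They summed to 339705 on the endocardial and 236716 on the aortic array, and of these Des was at or below 0 on both. With the floor at the median, single genes went both ways: Myl9 was 2.90-fold and Itga8 2.31-fold higher, and Myh11 was at least 3.99-fold lower. A further 4 did not pass 2-fold. The Myh11 value came from 1 of its 3 probe sets, and neither remaining one exceeded the floor on either array. When the highest background control served as the floor, 1 of 7 measured smooth muscle genes, Myl9, stayed at least 2-fold higher and 0 were lower. Fibroblast markers exceeded the floor with 13 of 17 probe sets on the endocardial and 14 on the aortic array. They summed to 483946 on the endocardial and 574019 on the aortic array. Of these genes Postn was 7.87-fold higher, Dcn was at least 13.9-fold lower, and 5 did not pass 2-fold. Macrophage markers exceeded the floor with 10 of 13 probe sets on the endocardial and 4 on the aortic array. They summed to 56634 on the endocardial and 10913 on the aortic array. The lysozyme gene Lyz2 alone gave 33620 on the endocardial and 287.8 on the aortic array, and without it the macrophage sums were 23015 on the endocardial and 10625 on the aortic array. Of the other macrophage markers, Ctss (at least 5.31-fold), Cd53 (at least 3.16-fold) and Cd74 (at least 2.42-fold) were higher on the endocardial array. Ptprc (log2 ratio -0.09) and Cd14 (0.38) did not pass 2-fold, and Csf1r was under the floor on both arrays. With the highest background control as the floor, 1 of 5 measured macrophage genes was at least 2-fold higher. Cardiomyocyte markers exceeded the floor with 5 of 18 probe sets on the endocardial and 6 on the aortic array. They summed to 6967 on the endocardial and 7594 on the aortic array, Actc1 was at or below 0 on both, and Myl2 was under the floor on both. Of these genes Myh6 was at least 2.50-fold lower, and 5 did not pass 2-fold. The Myh6 value came from 1 of its 3 probe sets, with both values under the highest background control. Above the highest background control were 10 smooth muscle probe sets and 1 cardiomyocyte probe set on each array. Fibroblast markers exceeded that control with 10 on the endocardial and 14 on the aortic array, and macrophage markers with 8 and 2. The part of these cell types in the receptor differences was not tested.

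By closeness of log2 intensity on both arrays, single probe sets of other genes were set against the median of each member. Values under the floor were first set to it. Nearest to Agtr1a were the only probe set of adrenomedullin (Adm), at 6642 on the endocardial and 2075 on the aortic array, and probe set C07012_f_at of Lgals3bp, at 6796 on the endocardial and 2163 on the aortic array. The other Lgals3bp probe set gave 10195 on the endocardial and 7709 on the aortic array, a log2 ratio of 0.40 that is unlike Agtr1a. Nearest to Avpr1a were probe set AF039583_s_at of Cd55, at 109.1 on the endocardial and 12040 on the aortic array, and the only probe set of Wfdc18, at 360.1 on the endocardial and 20776 on the aortic array. These endocardial values and that of Avpr1a were under the floor, so this closeness rests on the aortic array alone. The other Cd55 probe set gave 1129 on the endocardial and 3138 on the aortic array, a log2 ratio of -1.47 against -4.24 for the nearest one. The single probe sets of Ccl20 and Pdk1 were nearest to Ace, and the single probe set of Epn1 and 1 of 3 probe sets of Aopep to Agtr1b. With 2 arrays this likeness says only that the probe sets were about as bright, and probe sets differ in how brightly they report a transcript.

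**Figure D4:**
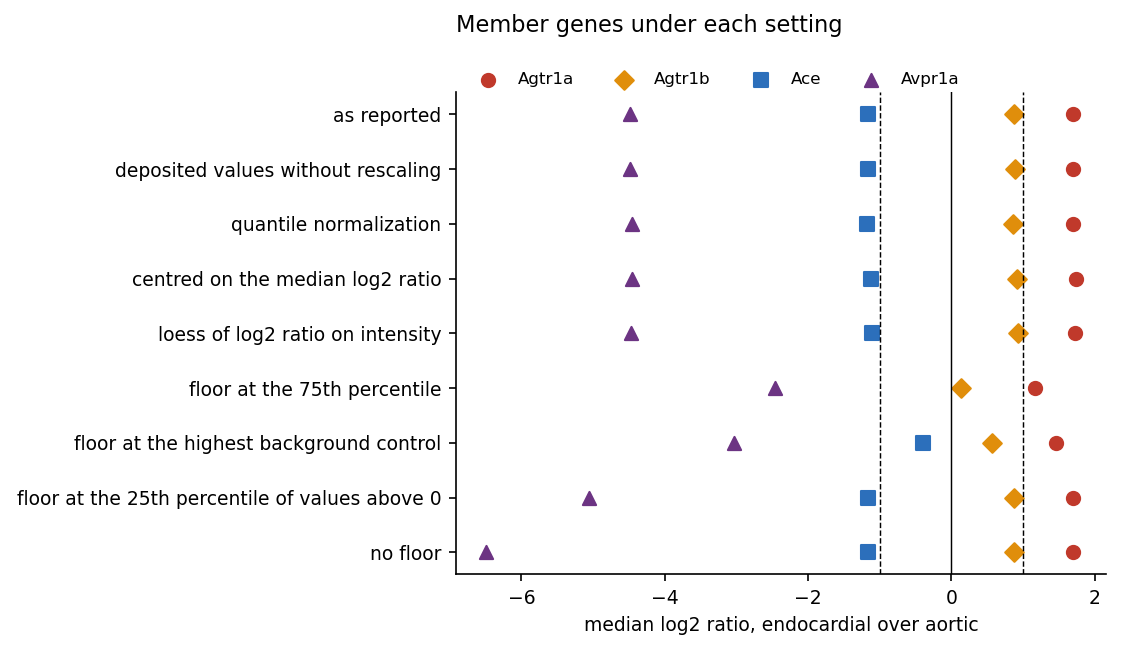
Median log2 ratio, endocardial over aortic (x axis), of the 4 measured member genes as reported and under each of the 8 other settings (y axis), with dashed lines at 2-fold. Agtr1a stays above 2-fold in all of them, while Avpr1a, whose endocardial value is under the floor, moves with the floor, and Ace has no point with the floor at the 75th percentile.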

How the data were processed

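Expression was measured on 2 Affymetrix rat genome U34A arrays, 1 of endocardial and 1 of aortic endothelial cells. The authors deposited 1 intensity per probe set and array, on a linear scale; the software and its settings are not given in the sources used here, and the near-equal trimmed means of the deposited intensities (2481 endocardial, 2478 aortic) look like scaling to a shared target. Of 8799 probe sets, 59 controls were left out of gene values. Arrays were scaled to the same 2% trimmed mean (factors 0.999 endocardial, 1.00 aortic), values under the median were set to it, and ratios were taken as endocardial over aortic. Genes came from the platform annotation (7006 probe sets with 1 symbol, 308 with several, 1426 with none; only the first kind was used), and all 6 member symbols matched a RefSeq gene table by gene identifier. Genes past a set difference of 2-fold were counted, with no test, since each group had 1 array. Members, lists and the rule for named genes were chosen with earlier results of these data known. The rule took all members, list genes past 2-fold, the highest and lowest of each list, and the 2 nearest genes by log2 intensity. Mme, Anpep, Gnaq, Gna11, Gna12, marker genes and genes under the floor were named in addition. The calling steps were tested on simulated data with large differences, made from intensities well above the floor. That test does not cover calls at or near the floor. Promoters were aligned globally with Biopython 1.88 (match 1, mismatch -1, gap opening -3, extension -0.5). Other steps used Python 3.11.15, numpy 2.4.6, pandas 2.3.3, scipy 1.17.1 and statsmodels 0.14.6 (loess, span 0.4). Precision is limited by the number of arrays.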

Additional observations from a re-analysis of the deposited data

How the results depend on the processing

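With the deposited values, with quantile normalization, after subtracting the median log2 ratio, or after a loess on intensity, the number of member probe sets at least 2-fold higher stayed at 5 and lower at 2, and the median log2 ratios ranged from 1.69 to 1.74 for Agtr1a, 0.86 to 0.93 for Agtr1b, -1.18 to -1.11 for Ace and -4.48 to -4.46 for Avpr1a. The floor moved more values. Taking the highest background control as the floor, the Ace log2 ratio was -0.40, that of Avpr1a -3.03, 1 member probe set was at least 2-fold lower, and over all probe sets 139 were higher and 100 lower, against 318 and 232 with the floor at the median. With the floor at the 75th percentile, 2 member probe sets were higher and 1 lower, the log2 ratios were 1.17 for Agtr1a, 0.13 for Agtr1b and -2.47 for Avpr1a, 90 of all probe sets were higher and 76 lower, and Ace was under the floor on both arrays and gave no value. With a lower floor, at the 25th percentile of values above 0, Avpr1a stood at -5.06, and with no floor at -6.50, while 611 of all probe sets were higher and 734 lower; the endocardial Avpr1a value lies under the floor, so these sizes follow from where the floor is set. No member changed direction under any of the 8 alternatives that gave it a value, but most of these could hardly have shown a change. A floor shared by both arrays cannot reverse the ratio of a probe set, so settings that only moved or removed it say nothing about direction. The deposited values were almost the same as the scaled ones. Direction was therefore checked only by quantile normalization, subtracting the median log2 ratio and the loess, and these concern scaling and not differences between cultures. No paired analysis was possible because each group had 1 array.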
